A study of Rattus norvegicus with 18 samples.

Results

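The genes described here are the cartilage collagens that the array reads, Col2a1, Col9a1, Col10a1 and Col11a1, which encode chains of collagens II, IX, X and XI. They were chosen by name: a probe set counted as a member where the platform annotation gave it a single gene symbol and that symbol was one of these. This gave 7 of the 8740 probe sets tested and 4 of the 4736 genes they cover. The rule used the names only, but the names were picked with earlier results of these data known. Where a gene had more than one probe set, the one with the highest mean log2 signal led, and the others are given beside it.

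RNA was measured in the middle part of the femur, with callus, cortical bone and marrow together, of female Sprague-Dawley rats that were older (52 weeks), adult (26 weeks) or young (6 weeks) when the bone was broken. The fractured femora healed around an intramedullary rod for 3 days or for 1, 2, 4 or 6 weeks. They were set against femora with no fracture, also called intact bone below, from rats that the study names sham controls. Whether these had a rod placed is not stated. The arrays analysed were 1 for each age and time, 18 in all, and the study's further arrays were not analysed here. Each read RNA pooled from 2 rats, so the 3 ages stand in as replicates of a time. The p-values measure only the spread left between these arrays once time and age are fitted. That spread mixes differences between pools of rats, differences between the ages in their response and technical differences, which cannot be told apart.

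Collagen II is the main fibril of cartilage, and collagens IX and XI are built into the same fibril, IX on its surface and XI in its core. Collagen X is a short-chain collagen that forms networks and is known as the product of hypertrophic chondrocytes, the swollen cells of cartilage that is about to be mineralized and replaced by bone. A fracture held by a rod heals largely through such a cartilage callus, so these genes are classical markers of the steps from soft callus to bone.

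The levels given below are signals, the brightness of a probe set after every array was scaled to the same average of 500. A signal below 20 was set to 20 before log2 was taken. Levels are compared between arrays for one probe set, and probe sets were set against each other only to choose the leading one and, within an array, to follow the difference of Col10a1 and Col2a1 over time. In a segment of mixed tissue, fewer cells of a type and less RNA per cell cannot be told apart.

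Col2a1 and Col10a1 were both called higher at 1 week and peaked at 2 weeks at all 3 ages, whereas Col11a1, by its leading probe set, was called higher at 3 days and stayed near that level to 6 weeks. The upstream sequences of Col10a1 and Col11a1 are shown because these genes had the smallest and the largest fitted change of the 4 at 3 days. They are the 250 bases before the annotated start of each gene in RefSeq on the rat assembly GRCr8, 5′ to 3′ on the + strand, from chr20:39737286-39737535 for Col10a1 and chr2:204508886-204509135 for Col11a1. Capitals mark matches to 4 motifs searched on both strands: a SOX core (ACAAAG or ACAATG), a RUNX core (TGTGGT), the TATA box (TATAAA) and an AP-1 site (TGACTCA or TGAGTCA).
Col10a1: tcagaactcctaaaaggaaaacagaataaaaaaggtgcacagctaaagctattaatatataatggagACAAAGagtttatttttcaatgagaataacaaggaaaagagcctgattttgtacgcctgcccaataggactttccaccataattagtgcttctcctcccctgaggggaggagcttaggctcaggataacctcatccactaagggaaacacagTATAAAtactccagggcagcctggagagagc
Col11a1: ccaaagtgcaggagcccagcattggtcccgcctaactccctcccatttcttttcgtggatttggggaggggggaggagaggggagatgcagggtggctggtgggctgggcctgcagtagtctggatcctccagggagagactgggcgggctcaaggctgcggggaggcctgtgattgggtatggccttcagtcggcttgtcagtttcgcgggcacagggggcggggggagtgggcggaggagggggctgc

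The Col10a1 stretch held ACAAAG at position -183 and TATAAA at position -31, counted from the start site. The Col11a1 stretch held none of the 4 motifs. Among 33469 promoter stretches of this length, 25.3% held the SOX core, 12.9% the TATA box, 14.5% the RUNX core and 4.05% the AP-1 site. The stretch before Col9a1 (chr9:34081114-34081363) also held none of them. Its GC content was 46.8%, against 41.6% for Col10a1 and 65.6% for Col11a1. The Col2a1 gene itself lies on chr7:130977561-131006627 of the same assembly.

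**Figure D1:**
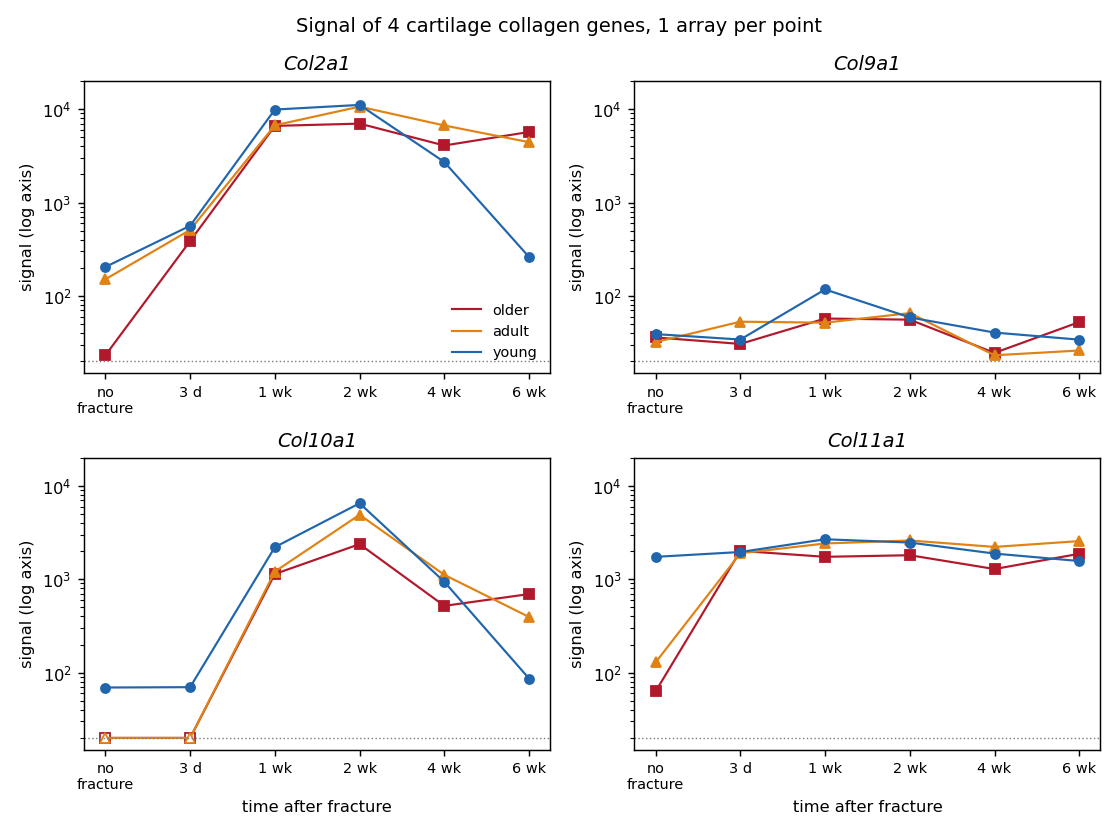
Signal (log axis) of the leading probe set of each gene by time after fracture, 1 array per point, in older (squares), adult (triangles) and young (circles) rats. The dotted line is the floor of 20 and open symbols are arrays below it; Col2a1 and Col10a1 peak at 2 weeks at every age, and the young 6-week array stands lowest of the 3 ages at 261.5 for Col2a1 and 86.5 for Col10a1.

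Col2a1 encodes the chain from which all of collagen II is made. With no fracture its signal was 23.2 in older, 151.1 in adult and 204.7 in young rats. At 3 days it was 387.7 in older, 510.1 in adult and 564.9 in young rats. At 1 week it stood at 6620.4 in older, 6720.5 in adult and 9902.7 in young rats. Every array from 3 days on lay above all 3 arrays with no fracture, and the 1-week arrays all lay above the 3-day ones.

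The highest Col2a1 signals came at 2 weeks, with 6998.7 in older, 10641.2 in adult and 11099.8 in young rats. At 4 weeks the signals were 4084.0 in older, 6686.2 in adult and 2719.3 in young rats, and at 6 weeks they were 5698.1 in older, 4431.1 in adult and 261.5 in young rats. The 6-week array of young rats was the only one of the later arrays to return near the level with no fracture, while those of older and adult rats stayed at 81.4% and 41.6% of their own 2-week signal.

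Fitted over all 18 arrays with limma, Col2a1 was 6.41 higher on the log2 scale at 1 week than with no fracture (SE 1.03, adjusted p = 0.000938), and 6.71 higher at 2 weeks (105-fold, adjusted p = 0.000879). The mean signal was 9579.9 ± 2247 at 2 weeks and 126 ± 93.3 with no fracture (SD, n = 3 each). The rise was 5.55 at 4 weeks (adjusted p = 0.00527) and 4.39 at 6 weeks (adjusted p = 0.0177). The difference of 2.43 at 3 days did not pass (adjusted p = 0.0861). Without the adult arrays the adjusted p was 0.0506 at 2 weeks, 0.152 at 4 weeks and 0.288 at 6 weeks, and without the older arrays it was 0.120 at 4 weeks and 0.294 at 6 weeks. A second probe set annotated to Col2a1, L48618_at, read between 8.0 and 21.6 and lay below the floor on 17 of 18 arrays, so it carries no information on the time course. With the actin 3′ to 5′ signal ratio, a measure of RNA integrity, as a covariate the Col2a1 difference was 3.73 at 1 week (adjusted p = 0.0732), 3.89 at 2 weeks (adjusted p = 0.0865) and 3.20 at 4 weeks (adjusted p = 0.140), none of them called, and -0.79 at 3 days, and it passed at 6 weeks alone (3.87, adjusted p = 0.0157). Every array from 3 days to 4 weeks had a lower ratio (1.48 to 1.90) than those with no fracture (2.10 to 2.61), so this ratio moved with the comparison.

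Col10a1 encodes the only chain of collagen X. With no fracture its signal was 11.9 in older, 14.7 in adult and 69.3 in young rats, and at 3 days it was 4.9, 7.2 and 69.9 in the same order of ages. The older and adult arrays at both of these times lay below the floor, so their level has only an upper bound. At 1 week the signal was 1137.6 in older, 1207.8 in adult and 2205.1 in young rats. Each of these was far above every array of the earlier times.

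At 2 weeks Col10a1 read 2373.9 in older, 4894.1 in adult and 6500.7 in young rats, its peak at each age. At 4 weeks it read 518.5 in older, 1113.8 in adult and 939.1 in young rats, all below the 1-week signal of the same age. At 6 weeks it read 693.6 in older, 394.2 in adult and 86.5 in young rats. The order of the ages at 6 weeks was thus the reverse of that at 2 weeks, and the young 6-week signal was within 1.25-fold of its level with no fracture.

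In the same limma fit Col10a1 did not differ between 3 days and no fracture (log2 difference 0.00, 95% interval -1.74 to 1.74), which with 4 arrays under the floor is a comparison of bounds. It was 5.58 higher at 1 week (SE 0.79, adjusted p = 0.00047), 7.13 higher at 2 weeks (adjusted p = 0.000168), 4.75 higher at 4 weeks (adjusted p = 0.00339) and 3.25 higher at 6 weeks (adjusted p = 0.0202). With 2 of the 3 arrays with no fracture raised to the floor, each of these differences is a lower bound. Mean signals were 4589.6 ± 2080.2 at 2 weeks and 32.0 ± 32.4 with no fracture (SD, n = 3 each). Without the adult arrays the adjusted p was 0.146 at 4 weeks and 0.337 at 6 weeks, and without the older arrays it was 0.0835 and 0.271. With the actin ratio as a covariate the rises at 1 and 2 weeks were 3.77 and 5.22 and passed (adjusted p = 0.040 and 0.0201), and that at 4 weeks did not (3.16, adjusted p = 0.109). With a floor of 100 the rise at 6 weeks was 1.59 and no longer passed (adjusted p = 0.134).

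A second Col10a1 probe set, S79214cds_s_at, had nearly the same mean log2 signal as the leading one, 8.36 against 8.37, and never fell below the floor. It read 593.6 in older, 1273.2 in adult and 1493.1 in young rats at 2 weeks, against 214.1 in older, 256.3 in adult and 188.3 in young rats with no fracture. Its peak also came at 2 weeks at every age, and no 2-week array overlapped one with no fracture. Its rise was smaller, 1.24 at 1 week (adjusted p = 0.00725) and 2.26 at 2 weeks (adjusted p = 0.000343). At 4 and 6 weeks this probe set was not called (0.54, adjusted p = 0.212, and 0.02, adjusted p = 1), so the late elevation of Col10a1 rests on its leading probe set. The correlation of both probe sets over the 18 arrays was r = 0.85.

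**Figure D2:**
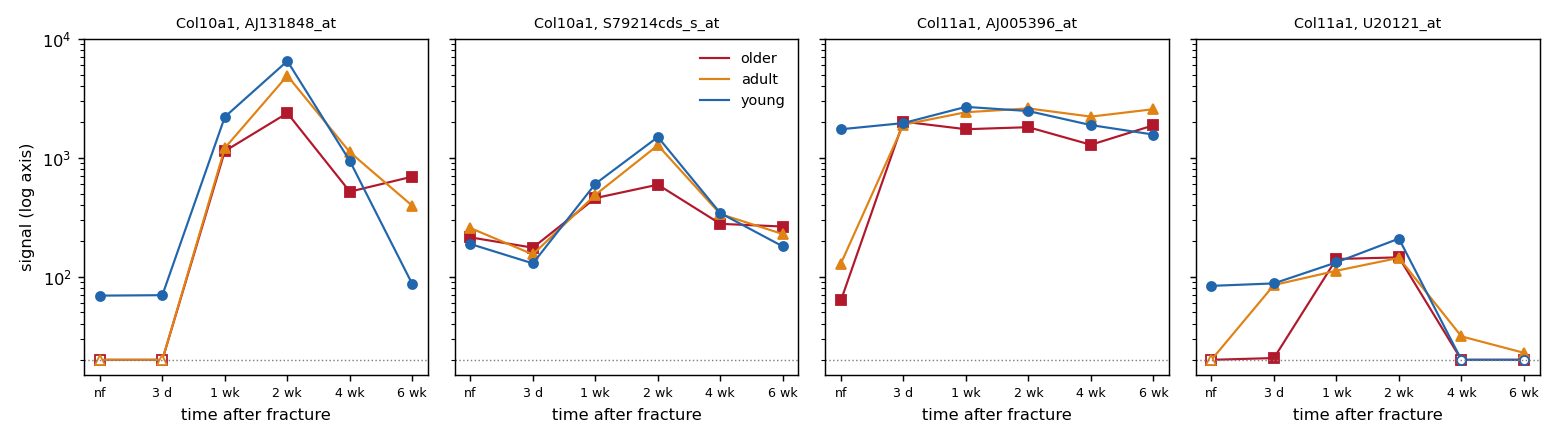
Signal (log axis) of the 2 probe sets of Col10a1 and of Col11a1 by time after fracture, 1 array per point, in older, adult and young rats; nf is no fracture, the dotted line the floor of 20 and open symbols arrays below it. Both Col10a1 probe sets peak at 2 weeks, while AJ005396_at of Col11a1 stays between 1285.3 and 2676.8 after fracture and U20121_at of the same gene is at or near the floor at 4 and 6 weeks.

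Col11a1 encodes a chain of collagen XI, the collagen that nucleates the cartilage fibril, and is also made in other connective tissue. With no fracture its signal was 63.1 in older, 129.0 in adult and 1735.3 in young rats. At 3 days it was 2010.9 in older, 1896.3 in adult and 1955.7 in young rats, with a mean of 1954.3 ± 57.3 (SD, n = 3). The 3 ages were far apart in intact bone and close together at 3 days. From then to 6 weeks all 15 fractured arrays read between 1285.3 and 2676.8, and in older and adult rats every one of them lay above the array with no fracture, whereas in young rats the 6-week array (1565.9) lay below it.

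Over the 3 ages the limma fit put Col11a1 at 3.01 above no fracture at 3 days (SE 0.80, 8.08-fold, adjusted p = 0.0119), 3.21 at 1 week (adjusted p = 0.0099), 3.23 at 2 weeks (adjusted p = 0.0106), 2.86 at 4 weeks (adjusted p = 0.0287) and 3.02 at 6 weeks (adjusted p = 0.0286). These rises come from older and adult rats. The 2-week signal was 28.6-fold that of intact bone in older, 20.1-fold in adult and 1.42-fold in young rats. Without the young arrays the 3-day rise was 4.44 (adjusted p = 0.000171). Without the adult arrays it was 2.58 (adjusted p = 0.191) and without the older arrays 2.02 (adjusted p = 0.221), and at no later time did a fit that left out either of these ages pass, with adjusted p from 0.167 to 0.414. With the actin ratio as a covariate the difference lay between 2.70 and 3.04 from 3 days to 4 weeks without passing (adjusted p from 0.144 to 0.223), and it passed at 6 weeks (2.98, adjusted p = 0.0467).

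The other Col11a1 probe set, U20121_at, read from 7.6 to 209.0, with 6 arrays below the floor. It read 145.4 in older, 144.0 in adult and 209.0 in young rats at 2 weeks, against 7.6 in older, 18.8 in adult and 83.7 in young rats with no fracture. It shared the gap between the ages in intact bone with the leading probe set, and was called higher at 1 week (1.99, adjusted p = 0.0132) and 2 weeks (2.34, adjusted p = 0.00619). It did not share the plateau: its differences from no fracture were -0.47 at 4 weeks and -0.62 at 6 weeks, neither called (adjusted p = 0.578 and 0.478). The correlation of both probe sets over 18 arrays was r = 0.43, so the late level of Col11a1 depends on which of them is read.

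Col9a1 encodes a chain of collagen IX, which coats the collagen II fibril. A single probe set read it, and it was dim, between 23.2 and 117.6 on all 18 arrays with a mean of 46.3, at the 27.1th percentile of mean log2 signal of all probe sets tested. The 3 highest arrays were the young one at 1 week (117.6), the adult one at 2 weeks (65.6) and the young one at 2 weeks (59.0). Signals were 57.4 in older, 51.8 in adult and 117.6 in young rats at 1 week, against 36.0 in older, 32.1 in adult and 39.1 in young rats with no fracture, with no overlap. At 4 weeks they were 24.6 in older, 23.2 in adult and 40.6 in young rats.

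In limma the Col9a1 rise was 0.98 at 1 week (SE 0.34, 1.98-fold, adjusted p = 0.0416). It was 0.75 at 2 weeks (adjusted p = 0.111), and at 3 days, 4 weeks and 6 weeks it lay between -0.32 and 0.10 (adjusted p from 0.548 to 1). The 1-week call was lost when any one age was left out, with adjusted p from 0.105 to 0.231, with the actin ratio as a covariate (0.97, adjusted p = 0.265), and with a floor of 100 the difference was 0.08 (adjusted p = 0.227). The Col9a1 signals lay close to the floor, and the smallest change that could be detected there was not computed.

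Counted together, the members called by limma against no fracture were 1 of 4 at 3 days, 4 of 4 at 1 week, and 3 of 4 at each of 2, 4 and 6 weeks, and every call was higher. Over all 8740 probe sets, 39.3% were called at 3 days, 35.8% at 1 week, 32.8% at 2 weeks, 21.2% at 4 weeks and 15.4% at 6 weeks, and calls that were higher made up 18.9%, 18% and 16.1% of all probe sets at the first 3 of these times and 11.5% and 8.34% at the last ones. The median log2 change of the 4 genes was 1.26 at 3 days, 4.40 at 1 week, 4.97 at 2 weeks, 3.80 at 4 weeks and 3.13 at 6 weeks. The median of all probe sets lay between -0.08 and -0.01 at these times. A test of any change over the 6 times passed for 3 of 4 (36.3% of all probe sets): Col10a1 (adjusted p = 0.000263), Col2a1 (0.00264) and Col11a1 (0.0388), but not for Col9a1 (0.0512). With the actin ratio as a covariate the members called against no fracture were 0 at 3 days, 1 at 1 and at 2 weeks, 0 at 4 weeks and 3 at 6 weeks. Without the adult arrays none of the 4 passed the test over all times, and without the older arrays Col10a1 alone did.

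**Figure D3:**
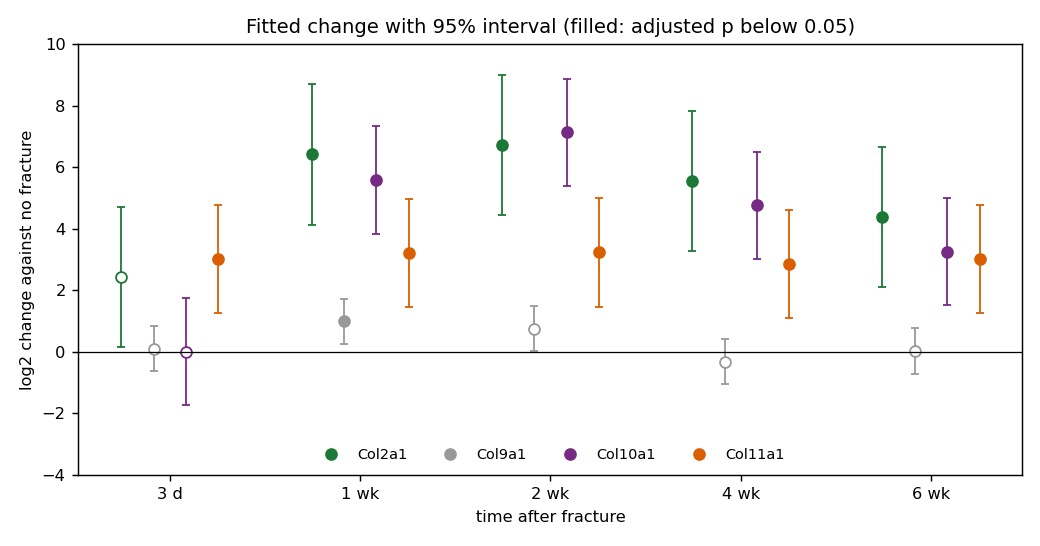
Fitted log2 change against no fracture (limma, 18 arrays) with its 95% interval for the leading probe set of each gene at each time; filled points passed an adjusted p of 0.05. Col10a1 is at 0.00 at 3 days and 7.13 at 2 weeks, while Col11a1 stays between 2.86 and 3.23 from 3 days to 6 weeks.

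The steps between neighbouring times were tested in the same fit. The 1 step that passed was that of Col10a1 at 1 week over 3 days, 5.58 higher (adjusted p = 0.00349), so 1 of 4 members was called there against 3.5% of all probe sets. Col2a1 was 3.98 higher at 1 week than at 3 days and just missed the threshold (adjusted p = 0.0663). Within each age that step was 17.1-fold in older, 13.2-fold in adult and 17.5-fold in young rats. The Col10a1 step was lost without the adult arrays (5.41, adjusted p = 0.209) and without the older arrays (5.45, adjusted p = 0.112). Col11a1 differed by 0.20 over the same step (adjusted p = 1).

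No member was called between 2 weeks and 1 week (0.103% of all probe sets), 4 weeks and 2 weeks (1.6%) or 6 weeks and 4 weeks (0.0915%) with its leading probe set. At an unadjusted p under 0.05 the counts of members were 0, 2 and 0 for these 3 steps. The 2 at 4 weeks against 2 weeks were Col10a1, which was 2.37 lower (adjusted p = 0.191), and Col9a1, 1.07 lower (adjusted p = 0.161). The other probe sets did pass at that step: S79214cds_s_at of Col10a1 fell by 1.71 (adjusted p = 0.0186) and U20121_at of Col11a1 fell by 2.81 (adjusted p = 0.0271). 

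Ordered by mean log2 signal, both Col2a1 and Col10a1 stood highest at 2 weeks, then at 1, 4 and 6 weeks, 3 days and no fracture. For Col10a1 the places of 3 days and no fracture carry no order, since 2 of 3 arrays at each were under the floor. No neighbours in the Col2a1 order differed beyond the spread between arrays, the nearest to it being 3 days against no fracture, given above, and 6 weeks against 3 days (1.96, adjusted p = 0.218). In the Col10a1 order 1 pair of neighbours did differ, 6 weeks against 3 days (3.24, adjusted p = 0.0156), a contrast that called 20.2% of all probe sets. Of the 3 arrays at 3 days, 2 were under the floor, and this contrast was not repeated with another floor or without an age. The second Col10a1 probe set had mean log2 signals of 7.79 at 6 weeks and 7.24 at 3 days. The order for Col11a1 was 2 weeks, 1 week, 6 weeks, 3 days, 4 weeks and no fracture, and its fractured times differed from their neighbours by between -0.19 and 0.02 (adjusted p from 0.988 to 1), so that only no fracture stood apart.

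Collagen X is known to follow collagen II as cartilage matures, and the within-array difference between both genes was compared between times. This difference, log2 Col10a1 minus log2 Col2a1, was -1.56 in older, -1.12 in adult and -0.77 in young rats at 2 weeks, against -2.54 in older, -2.48 in adult and -2.17 in young rats at 1 week. It was higher at 2 weeks at all 3 ages, with no overlap, by 1.24 on average. An exact two-sided permutation test gave p = 0.1, the smallest that 3 arrays against 3 allow. At 4 weeks it was -2.98 in older, -2.59 in adult and -1.53 in young rats. With 2 and 4 weeks joined (6 arrays) against 1 week (3 arrays) the mean difference was 0.64 and the exact two-sided permutation p was 0.238, where the smallest possible is 0.0238. Neither comparison passed, 2 weeks was not tested against 4 weeks, and the permutation makes no use of the matching of arrays by age.

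**Figure D4:**
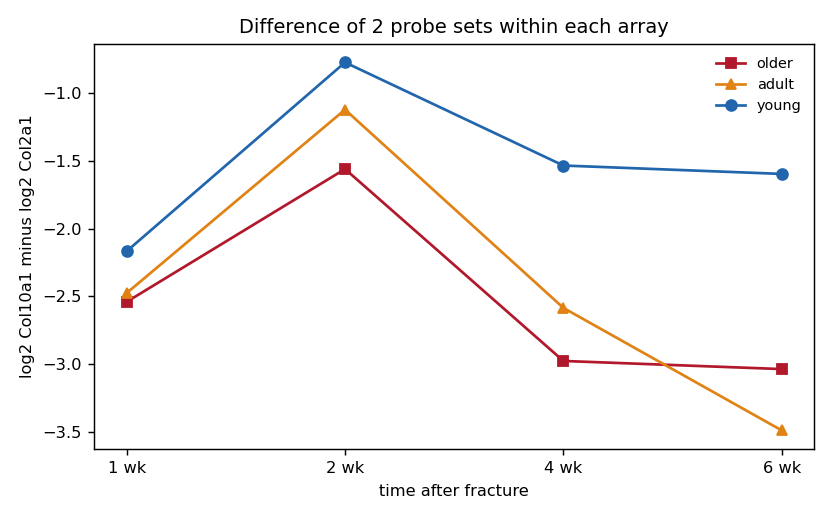
Difference of log2 signals, Col10a1 minus Col2a1, within each array at each of the last 4 times of healing, 1 array per point, in older, adult and young rats. It is highest at 2 weeks at each age, between -1.56 and -0.77, and its zero has no meaning because probe sets differ in brightness.

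Age was the other axis of the design. Over all 6 times no member was called between older and young rats (0.446% of all probe sets called) or between adult and young rats (0.0801%), a test over the 3 ages together called none either (0.0343%), and none differed at an unadjusted p under 0.05 in limma. The log2 difference, older minus young, was 0.02 for Col2a1 (95% interval -1.59 to 1.63), -0.64 for Col10a1 (-1.87 to 0.59), -1.02 for Col11a1 (-2.26 to 0.23) and -0.25 for Col9a1 (-0.77 to 0.28). These intervals are wide, and they average over times at which the ages stood in opposite orders.

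With no fracture, the leading probe sets of the 3 better read collagens were each highest in young rats. Col11a1 was 27.5-fold higher in young than in older rats, Col2a1 8.82-fold and Col10a1 at least 3.465-fold, its older signal being under the floor. The second Col10a1 probe set, never under the floor, was instead lowest in young rats, with 214.1 in older, 256.3 in adult and 188.3 in young ones. There is 1 array per age here, so these differences have no replicate of their own. Among the genes of the lists below, 5 of 9 cartilage matrix genes, 6 of 6 collagens of bone and fibrous tissue and 13 of 14 genes of collagen folding and cross-linking were highest in the young array here. So were 7 of 8 mineralization genes, but 9 of 20 chondrocyte growth factors and receptors, 1 of 5 chondrocyte transcription factors and 1 of 9 skeletal muscle markers. The share over all genes was not computed. Col5a1, a chain of a collagen that resembles XI, read 478.2 in older, 745.9 in adult and 3272.1 in young rats, and Acan, the main proteoglycan of cartilage, read 16.4 in older, 24.4 in adult and 319.3 in young rats. Serpinh1, a collagen chaperone, read 529.2 in older, 459.7 in adult and 3947.3 in young rats. Cnmd, or chondromodulin, a protein of avascular cartilage, ran the other way, with 67.7 in older, 51.6 in adult and 16.8 in young rats.

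At 1 and 2 weeks the young arrays held the highest signals of Col2a1 and Col10a1. Older rats differed from young ones by -0.62 for Col2a1 (95% interval -2.99 to 1.75), -1.20 for Col10a1 (-3.54 to 1.14), -0.54 for Col11a1 and -0.56 for Col9a1, and 0 of 4 members were called in a limma fit with age nested in phase (0% of all probe sets). That fit leaves 4 residual degrees of freedom, and 977 probe sets, Col11a1 among them, passed a threshold of 0.05 with no adjustment. The second Col10a1 probe set differed by -0.87 (95% interval -1.71 to -0.02, adjusted p = 0.434).

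At 6 weeks the order of the ages had turned for Col2a1 and Col10a1. Col2a1 was 21.8-fold higher in older and 16.9-fold higher in adult than in young rats, and Col10a1 was 8.02-fold and 4.56-fold higher by its leading probe set. At 4 weeks the same ratios were 1.50 and 2.46 for Col2a1, and 0.55 and 1.19 for Col10a1. The second Col10a1 probe set kept the 6-week order with a smaller gap, 264.0 in older, 228.1 in adult and 179.6 in young rats. Both weeks joined, older minus young was 2.52 for Col2a1 (SE 0.91, adjusted p = 0.219) and 1.07 for Col10a1 (adjusted p = 0.563), so 0 of 4 members were called, against 1.24% of all probe sets. With the second Col10a1 probe set it was 0.13 (adjusted p = 0.927). Without the 4-week arrays the Col2a1 value was 4.45 (adjusted p = 0.0244), but this sets 1 array against 1 with the spread taken from 1 and 2 weeks, so it is no test between the ages.

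**Figure D5:**
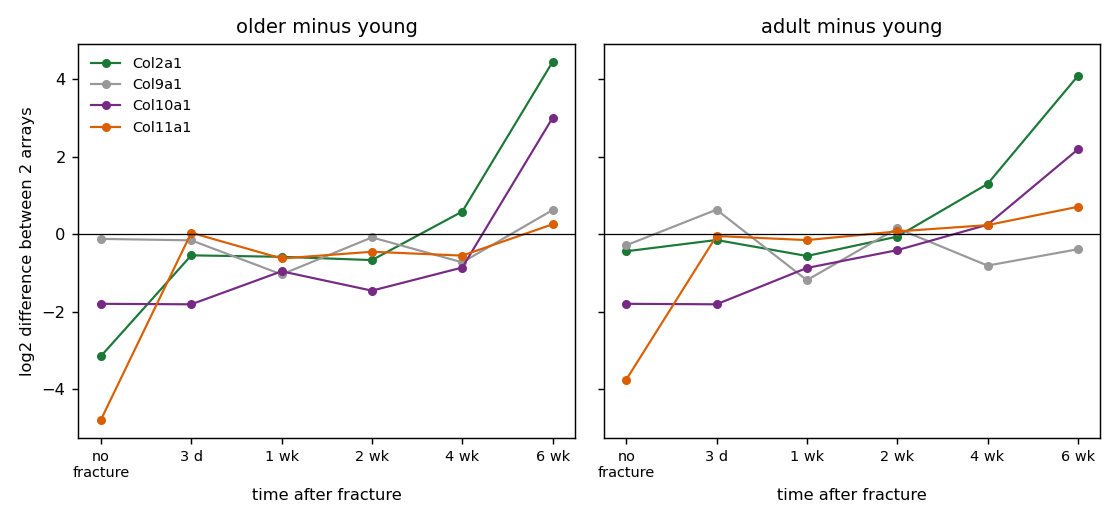
Log2 difference between older and young rats (left) and between adult and young rats (right) at each time, for the leading probe set of each gene; each point is the difference of 2 arrays and has no error of its own. Col11a1 is far below 0 with no fracture only, and Col2a1 and Col10a1 are above 0 at 6 weeks.

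On single arrays, 1 per age and time, the fall after the peak differed in depth between the ages. These ratios have no replicate, and the difference between the ages in this fall was not tested. Col2a1 at 6 weeks was 1.23-fold lower than at 2 weeks in older rats, 2.40-fold lower in adult and 42.4-fold lower in young rats. Col10a1 at 6 weeks was 3.42-fold lower in older, 12.4-fold lower in adult and 75.1-fold lower in young rats by its leading probe set. Its second probe set fell less, from 593.6 to 264.0 in older, from 1273.2 to 228.1 in adult and from 1493.1 to 179.6 in young rats. In older rats the leading probe sets of both genes read slightly more at 6 than at 4 weeks, 1.40-fold for Col2a1 and 1.34-fold for Col10a1. The second Col10a1 probe set did not, with 278.1 at 4 and 264.0 at 6 weeks. Of the 9 cartilage matrix genes, 7 were lowest in the young array at 6 weeks and 2 in the older one, and the share over all genes was not computed. Acan read 800.1 in older, 1056.4 in adult and 190.9 in young rats, and Comp, an extracellular protein that binds cartilage collagens, read 1530.6 in older, 473.8 in adult and 162.4 in young rats, whereas Cnmd read 13.5 in older, 46.6 in adult and 39.6 in young rats. The actin ratio was highest of all arrays, 2.72, on the young 6-week array. With this ratio as a covariate, older minus young for Col10a1 at 4 and 6 weeks was -1.17, against 1.07 without it. Neither was called in limma (adjusted p = 0.674 and 0.563). The part of the ratio in the signals of the young 6-week array alone was not tested.

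Whether the gap between older and young rats departed from that in intact bone was tested as an interaction in the same nested fit. The leading probe set of Col11a1 passed, with 4.24 at 1 and 2 weeks (SE 0.34, adjusted p = 0.00664; 1 of 4 members, 2.22% of all probe sets) and 4.64 at 4 and 6 weeks (SE 0.34, adjusted p = 0.00442; 1 of 4 members, 3.02%). Both values rest on the single pair of intact arrays, older and young, and the SE is borrowed from the spread among fractured arrays, so the p-values carry no measure of the spread between intact bones. Without the 1-week or the 2-week arrays neither passed, with adjusted p from 0.109 to 0.158. The U20121_at probe set gave 1.85 and 2.07 (adjusted p = 0.0865 and 0.055). Its older and young arrays at 4 and 6 weeks were all under the floor, so the 2.07 is only its gap in intact bone with the sign turned. The older intact array (7.6) was under the floor as well, and the young one read 83.7. Col2a1 had 5.66 at 4 and 6 weeks (adjusted p = 0.159), and 7.59 without the 4-week arrays (adjusted p = 0.011), where both arms are 1 array against 1.

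Among the 4 collagens, the profile of Col2a1 over the 18 arrays was most like that of Col10a1. Their log2 signals correlated at r = 0.91, and no gene outside the group had a higher correlation with Col2a1. Col11a1 correlated at 0.73 with Col2a1 and 0.56 with Col10a1, and Col9a1 at 0.40, 0.47 and 0.27 with Col2a1, Col10a1 and Col11a1. These are descriptions over arrays that share the scaling and the time course, and the near-floor signal of Col9a1 limits its values.

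Of 4732 other genes ranked, the 5 most like Col2a1 were Jdp2, a transcriptional repressor of the AP-1 family (r = 0.91), Comp (0.90), Mfge8, a secreted glycoprotein (0.89), Fn1, fibronectin (0.89), and Gal, the neuropeptide galanin (0.88). Those most like Col10a1 were Igf2, a growth factor (0.86), Cd4 (0.85), Oxr1 (0.84), Myh3, the embryonic myosin heavy chain (0.84), and Psen2 (0.83). Those most like Col11a1 were Slit3, a secreted guidance protein (0.98), Col3a1 (0.97), Col5a2 (0.97), Sptan1, a spectrin (0.97), and Sparc, a collagen-binding protein of bone matrix (0.96). For Col9a1 the list was Mtdh (0.74), Rab4a (0.74), Slc29a2 (0.73), Vdr, the vitamin D receptor (0.71), and Klf13 (0.71). Among its 5 genes the list for Col11a1 held 2 fibrillar collagens of fibrous tissue, and that for Col2a1 held a cartilage matrix protein, Comp. The ranking used leading probe sets only. The other Col11a1 probe set, which correlated at 0.43 with the leading one, was not ranked.

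The rest of the cartilage matrix was read by 9 of 21 listed genes. In limma 6 of 9 were higher than with no fracture at 3 days, 8 at 1 week, 8 at 2 weeks, 7 at 4 weeks and 5 at 6 weeks, and none was lower. Higher calls made up 18.9%, 18%, 16.1%, 11.5% and 8.34% of all probe sets at these times. Their median log2 change was 1.39 at 3 days, 1.89 at 1 week and 2.00 at 2 weeks. Acan rose by 4.99 at 1 week (adjusted p = 0.00226) and Comp by 3.91 (adjusted p = 0.000805), and Acan was already up by 4.74 at 3 days, when Col2a1 was not called. Vcan, a proteoglycan of loose matrix, rose by 2.84 and Fmod, a fibril-binding proteoglycan, by 2.49 at 1 week. Cnmd read 140.4 in older, 118.4 in adult and 214.0 in young rats at 1 week, against 67.7, 51.6 and 16.8 with no fracture, and was 1.89 higher (adjusted p = 0.0146). Sox9 and Ihh, the lineage factor and the hedgehog ligand of chondrocytes, were not read by a probe set with a single symbol, nor were the 4 other listed cartilage collagen chains.

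Among 6 of 12 listed collagens of bone and fibrous tissue, 4, 4, 5, 5 and 4 were called higher at 3 days and 1, 2, 4 and 6 weeks. The shares of all probe sets called higher were 18.9%, 18%, 16.1%, 11.5% and 8.34%. At 1 week Col5a1 rose by 3.04, Col12a1 by 2.90, Col5a2 by 2.50 and Col3a1 by 2.05. At 3 days these rises were already 3.00, 2.72, 2.55 and 1.85. Col1a1, the main collagen of bone, was 1.24 higher at 1 week (adjusted p = 0.0625) and 1.47 higher at 2 weeks (adjusted p = 0.0336). Of 5 other collagens read, Col15a1 and Col8a1 were among those that rose, by 2.19 and 2.08 at 1 week, and Col4a3, of basement membranes, fell by 0.68.

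Collagen chains need hydroxylases, chaperones and cross-linking enzymes before they form fibrils. Of 14 such genes read, 13 were higher at 3 days, 13 at 1 week, 12 at 2 weeks, 8 at 4 weeks and 6 at 6 weeks. These counts stand against 18.9%, 18%, 16.1%, 11.5% and 8.34% of all probe sets called higher. At 1 week Lox, the cross-linking oxidase, rose by 3.47, Serpinh1 by 3.38, Pcolce, an enhancer of propeptide removal, by 2.79, and P4ha1, a prolyl hydroxylase, by 2.07. The exception was Hsp90b1, a general chaperone of the endoplasmic reticulum, which fell by 0.50 at 1 week. Of 5 collagen receptors read, Ddr2, a kinase that binds fibrillar collagen, rose by 2.56 at 1 week and Itgb1, an integrin chain, by 0.66, and the other 3 were not called at any time.

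The regulators of chondrocytes were called in both directions. Of 20 growth factors and receptors read, 8 were higher and 3 lower at 3 days, and 7 were higher and 1 lower at 1 and at 2 weeks. With both directions pooled these are 55%, 40% and 40% of the list, against 39.3%, 35.8% and 32.8% of all probe sets called at those times. The pooled counts at 1 and 2 weeks were thus near the background. The higher calls alone, 8, 7 and 7 of 20, stand against 18.9%, 18% and 16.1% of all probe sets. At 1 week Tgfb3 rose by 2.90, Igf1 by 2.51, Fgfr1 by 2.10 and Pth1r, the receptor that slows hypertrophy, by 1.46. Gdf10 fell by 1.83. Of 5 transcription factors read, Hif1a, the hypoxia factor, rose by 2.45 and Dlx5 by 1.15 at 1 week, whereas Msx2 fell by 1.01 at 1 week and Foxo1 fell by 1.56 at 2 weeks. Foxa2 was below the floor at every time, so its level has only a bound.

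Hypertrophic cartilage is removed by proteases and mineralized. Mmp13, its collagenase, read 9523.0 in older, 9276.2 in adult and 12240.6 in young rats at 2 weeks, against 605.2 in older, 1331.4 in adult and 2137.0 in young rats with no fracture. It was 1.75 higher at 1 week, and 3.10, 3.10 and 3.03 higher at 2, 4 and 6 weeks (adjusted p from 0.000476 to 0.00865), and the 6-week signals, 8911.0 to 11113.2, had not come down as those of Col10a1 had. Of 11 proteases and inhibitors read, 5 to 7 were higher at each time, against 8.34% to 18.9% of all probe sets. Mmp12, the elastase of macrophages, rose by 4.18 at 2 weeks, and Mmp8, the neutrophil collagenase, fell by 4.35. Mmp9 was 2.63 higher at 2 weeks and was not called (adjusted p = 0.133). Of 8 mineralization genes read, 5, 6, 5, 6 and 3 were higher over the 5 times, against 18.9%, 18%, 16.1%, 11.5% and 8.34% of all probe sets. Ibsp, or bone sialoprotein, rose by 3.03, Phex, an endopeptidase of osteoblasts, by 2.93 and Spp1, or osteopontin, by 2.13 at 2 weeks.

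Markers of other cells in the segment were read as well. All 4 neutrophil markers read were lower at 3 days to 4 weeks, and 2 at 6 weeks; their summed signal was 894.3 to 2425.8 at 2 weeks, against 40164.5 to 52678.6 with no fracture. Of 6 erythroid markers, 6, 5, 5, 2 and 2 were lower, with sums of 2615.3 to 15478.3 at 1 week against 42335.4 to 75185.5 with no fracture. All 9 muscle markers were lower at 3 days (sums of 30705.6 to 44874.9 against 113582.2 to 129163.5), 2 at 1 week and none later. Of 6 adipocyte markers, 3, 2, 2, 1 and 0 were lower, and of 4 endothelial ones 1 was higher at each time to 4 weeks and 1 was lower at 2 and at 4 weeks. From 3 days to 6 weeks these are 50%, 33.3%, 33.3%, 16.7% and 0% of the adipocyte list, and 25%, 25%, 50%, 50% and 0% of the endothelial one. Over all probe sets 39.3%, 35.8%, 32.8%, 21.2% and 15.4% were called in either direction, so the lists lay on both sides of the background. The 4 osteoclast markers were higher in 0, 3, 4, 3 and 3 cases, against 18.9%, 18%, 16.1%, 11.5% and 8.34% of all probe sets called higher. Since each array is scaled to the same average, a loss of marrow transcripts raises the share of all others, and its part in the collagen values was not tested.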

How the data were processed

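The authors pooled RNA of 2 rats per sample, hybridized it to Affymetrix rat arrays and used Microarray Suite 5.0 to summarise each probe set as a signal intensity, scaled to an average of 500 per array. The deposited table held these intensity values for 18 arrays, and its 2%-trimmed means were 499.98 to 499.99. A probe set's value is therefore a share of its array's signal. Detection calls were not used here, and 0 columns were left out. Arrays have no read depth, and on each array between 12.3% and 20.3% of the values were under 20. The actin 3′/5′ signal ratio was 1.48 to 1.90 on all arrays from 3 days to 4 weeks, 1.89 to 2.72 at 6 weeks and 2.10 to 2.61 with no fracture.

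Of 8799 probe sets, 59 controls were left out. By the platform annotation 7006 of the remaining 8740 named 1 gene, 308 several and 1426 none, and 6985 were matched to RefSeq GRCr8 by Entrez ID, with 0 symbols changed. Values under 20 were raised to 20 before the log2 step, and no filter was applied. limma 3.58.1 in R 4.3.3 fitted time and age as additive factors with a trend in the moderation (10 residual and 0.949 prior degrees of freedom), and a nested fit with an age effect for each phase, where 1 and 2 weeks form 1 phase and 4 and 6 weeks another (4 and 0.865). Adjusted p is Benjamini-Hochberg over 8740 probe sets, and a value under 0.05 was called. The permutation test used scipy 1.17.1. The fitting code was tested on simulated data. The t-test that the study's methods name, set here at 0.005, the threshold they give for comparing single arrays, was one of the alternatives, beside other normalizations, floors, filters, probe sets and leaving out each age or time. The arrays carry no replicate numbers in their labels, so age is the only block. 4 tests between times adjacent in the order of levels were added after the levels were seen.

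The members and gene lists were chosen with earlier results of these data known. The text names all members and every probe set of each, the 5 genes that correlate best with each member, up to 4 of each list with the largest called change at 1 or 2 weeks, and Acan and Comp. Other genes were named after their values were seen, where a count or comparison turned on them.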

Additional observations from a re-analysis of the deposited data

Results flagged for a closer look

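The leading probe set of Col11a1 differed between older and young rats in its level relative to intact bone. The difference older minus young exceeded that with no fracture by 4.24 on the log2 scale at 1 and 2 weeks (limma adjusted p = 0.00664) and by 4.64 at 4 and 6 weeks (adjusted p = 0.00442). The intact signals behind both values were 63.1 in older and 1735.3 in young rats, 1 array each, and the error is taken from fractured arrays, so the spread between intact bones was not measured. With U20121_at the values were 1.85 and 2.07 and were not called (adjusted p = 0.0865 and 0.055). The 2.07 is only the gap of U20121_at in intact bone, since its older and young arrays at 4 and 6 weeks were all under the floor. Without the 1-week or the 2-week arrays neither value of the leading probe set passed (adjusted p from 0.109 to 0.158). Groups of 3 arrays are too small for a test of outlying samples, and none was run.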

How the results depend on the processing

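With 1 array per age and time, the calls of the members depended on few arrays. Of 902 values recomputed for single members, 766 kept their direction and their side of the threshold, 78 lost and 20 gained a call, and 38 turned round. Of those that turned, the called ones were both of Col11a1 with its other probe set, -0.47 at 4 weeks and -0.62 at 6 weeks. Quantile normalization, median centring, no trend in the moderation and no age term moved none of the counts of members called by over 1.5 times. At 3 days, where 1 member was called, a filter on a mean signal of 200 gave 2, and the actin ratio as a covariate, a fit of only the arrays compared, the methods' t-test with or without Benjamini-Hochberg and the other probe sets gave 0. At 1 week, with 4 called, the actin ratio gave 1, only the arrays compared 1 and the methods' t-test 2 either way. At 2 weeks, with 3 called, the actin ratio gave 1 and only the arrays compared 0. At 4 weeks, with 3 called, the actin ratio, only the arrays compared and the other probe sets gave 0, and the methods' t-test 1, or 0 after Benjamini-Hochberg. At 6 weeks, with 3 called, only the arrays compared, the methods' t-test either way and the other probe sets gave 0. For 1 week against 3 days, with 1 called, a floor of 100, log2 of the signal plus 50, the filter at 200, the actin ratio and the methods' t-test gave 2, and only the arrays compared 0. For 4 against 2 weeks, with 0 called, log2 of the signal plus 50 gave 1 and the other probe sets 2. Leaving out each age in turn gave 0 to 2 at 3 days, 2 to 3 at 1 week, 1 to 3 at 2 weeks, 0 to 3 at 4 and at 6 weeks, 0 to 1 for 1 week against 3 days and 0 to 3 for the test over all times. Older minus young at 4 and 6 weeks, with 0 called, gave 1 with the filter at 200 and 1 without 4 weeks. Its departure from no fracture, with 1 called, gave 2 with the filter at 200, 2 without 4 weeks, 0 without 1 week, 0 without 2 weeks and 0 with the other probe sets. At 1 and 2 weeks that departure, with 1 called, gave 0 without 1 week, 0 without 2 weeks and 0 with the other probe sets. A fit of only the arrays compared has fewer arrays by construction; the cause of the other changes was not tested.

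The other values that turned had not been called. With the actin ratio as a covariate Col2a1 was -0.79 at 3 days, 0.67 at 6 against 4 weeks and -0.53 for older minus young, Col10a1 was -2.17 at 3 days and -1.17 for older minus young at 4 and 6 weeks, and Col9a1 was -0.86 for the departure of that difference from no fracture. With the other probe sets Col10a1 was -0.52 at 3 days, 0.079 for adult minus young, and -1.05 and -0.057 for the departures at 1 and 2 and at 4 and 6 weeks, Col11a1 was -0.15 at 6 against 4 weeks, and Col2a1 was -0.037 at 1 week against 3 days. With log2 of the signal plus 50 Col10a1 was -0.11 at 3 days and -0.23 for the departure at 1 and 2 weeks, and Col9a1 was 0.0033 for older minus young at 4 and 6 weeks. With a floor of 100 Col10a1 was 0.16 for adult minus young and -1.20 for the departure at 1 and 2 weeks. Col9a1 was 0.22 with quantile normalization and 0.073 with median centring for older minus young at 4 and 6 weeks, and with median centring -0.034 for its departure and -0.000198 at 6 weeks. Leaving out a time gave Col2a1 -0.10 without 4 weeks and -0.87 without 6 weeks for older minus young. It gave Col11a1 0.16 for adult minus young without no fracture, and 0.26 for older minus young at 4 and 6 weeks without 4 weeks. It gave Col10a1 -0.86 for older minus young at 4 and 6 weeks without 6 weeks. It gave Col9a1 0.63 for older minus young at 4 and 6 weeks without 4 weeks, 0.039 for the departure at 1 and 2 weeks without 1 week, and -0.60 for that at 4 and 6 weeks without 6 weeks. Leaving out each age in turn put Col9a1 between -0.21 and 0.27 at 3 days, between -0.25 and 0.17 at 6 weeks, between -0.52 and 0.15 at 2 weeks against 1 week and between -0.041 and 0.63 at 6 against 4 weeks, and Col11a1 between -0.030 and 0.082 at 2 weeks against 1 week and between -0.029 and 0.38 at 6 against 4 weeks.

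The mean difference between Col10a1 and Col2a1 at 2 and 4 weeks over 1 week lay between 0.45 and 0.82 when an age was left out, and was 0.44 with the other Col10a1 probe set. Over all probe sets the counts called moved by over 1.5 times in each comparison: 902 to 3594 at 3 days, 356 to 3290 at 1 week, 0 to 3073 at 2 weeks, 0 to 2011 at 4 weeks and 0 to 1636 at 6 weeks. No paired analysis was possible because the labels give the arrays no replicate numbers to pair by, other than the age term of the fit, which matches the times within each age.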
